A study of Mus musculus with 26 samples.

Results

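The NF-κB transcription factor family has 5 subunit genes in the mouse, Rela, Rel, Relb, Nfkb1 and Nfkb2. Members were chosen by gene symbol in the annotation of the array platform, and 4 of the 5 genes had a probe set by that rule, 1 each, among 35556 probe sets in all. Rela, Rel, Relb and Nfkb2 are described here, and Nfkb1 was not analysed here. Hence the canonical side is represented by Rela and Rel without the p50 precursor, and the non-canonical side by Relb and Nfkb2.

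NSPs are neurospheres, floating clusters of neural stem and progenitor cells, here from the ventricular zone of E14 C57BL/6J embryos (embryonic day 14). They were differentiated towards astrocytes on poly-L-ornithine in DMEM with 10% fetal bovine serum. Untreated NSPs were sampled at 0, 6, 24, 48 and 72 h, and TNF-treated NSPs, which received 50 ng/mL TNF during differentiation, at each of these times except 0 h. Each of these 9 conditions had 3 arrays, labelled as biological replicates, except TNF after 72 h, which had 2. Cells of both arms came from the same strain and were differentiated in the same serum. Both arms start from the same 3 arrays. No sorting step is described, and the sources used here do not say how many embryos went into a culture.

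NF-κB subunits bind DNA as pairs. In resting cells the pairs made of RELA or REL with p50 are held in the cytoplasm by IκB proteins, and TNF, acting through its receptor and the IKK kinases, has the IκB proteins degraded, which frees the pairs within minutes. In the slower non-canonical branch the kinase NIK and IKKα have the precursor p100, the product of Nfkb2, cut to p52, the partner of RELB. Relb and Nfkb2 are also known target genes of the canonical branch. Astrocytes respond to TNF through this pathway in inflamed brain. Arrays measure transcript levels and carry no information on protein processing or nuclear entry.

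Values are log2 signals as the authors deposited them. They ran from 2.30 to 14.61 over the table, and array medians lay between 7.54 and 7.76. Correlations between arrays ran from 0.947 to 0.996. Because all cells of a culture were measured together, more cells expressing a gene and more RNA per cell cannot be told apart. The labelled cell type was checked against its markers. Gfap, the astrocyte intermediate filament, rose in untreated NSPs to a mean of 13.54 after 72 h (log2 change from 0 h 4.54, limma q = 1.51e-10), and 4 of 10 astrocyte markers were called higher after 72 h than at 0 h and 0 lower. Of 7 neural stem cell markers 4 were also higher and 1 was lower, Hes5, a Notch target. Of 4 mural markers 2 were higher, among them Acta2 (4.09, limma q = 3.31e-08), and 1 was lower. Over all probe sets 22.8% were called in either direction in that comparison. The mean level of the 10 astrocyte markers spanned 11.25 to 12.54 on untreated arrays, which include 0 h, and 11.42 to 12.19 on TNF-treated arrays, which do not. At matched times their median TNF effect was -0.14, -0.27, -0.36 and -0.35 (log2) at 6, 24, 48 and 72 h.

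The non-canonical subunits rose with TNF at every time examined. Relb, whose product is the transactivating subunit of this branch, was 2.20-fold higher after 6 h and 3.22-fold higher after 72 h. Nfkb2, which encodes p100 and p52, was 1.60-fold higher after 6 h and 2.73-fold higher after 72 h. The changes of the canonical subunits Rela and Rel were smaller, between 1.09-fold and 1.31-fold. In the main fit, with 1 mean per condition over all arrays, neither passed the threshold at any time. Of 10 other settings of the fit, Rela passed in 5, 2, 1 and 6 at 6, 24, 48 and 72 h. Rel passed in 1 of them, at 6 h only. The threshold was a q-value below 0.05, where q is the expected share of false calls, computed over all probe sets of a comparison.

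Relb (probe set 10560575, gene at chr7:19606217-19629438 in GRCm38) was low in untreated NSPs. Its log2 signal in untreated NSPs was 8.22, 7.77 and 8.11 at 0 h, then 7.78, 7.74 and 7.82 after 6 h and 7.77, 7.42 and 7.74 after 24 h. It was 7.82, 7.79 and 7.92 after 48 h and 7.79, 7.66 and 7.69 after 72 h. Every untreated array thus lay at or below 8.22, with 2 of the 0 h arrays highest. In TNF-treated NSPs Relb reached 9.20, 8.91 and 8.64 after 6 h and 8.99, 9.02 and 9.02 after 24 h. After 48 h it was 9.09, 9.10 and 9.43, and after 72 h 9.38 and 9.42. No TNF-treated array overlapped any untreated array of any time. The differences between TNF-treated and untreated NSPs were 1.14 ± 0.13 after 6 h (log2, standard error, n = 3 and 3, limma q = 5.85e-05), 1.36 ± 0.13 after 24 h (q = 2.95e-06), 1.37 ± 0.13 after 48 h (q = 2.01e-06) and 1.69 ± 0.15 after 72 h (n = 3 and 2, q = 8.46e-07). Fitted on the arrays of 6 h alone, the difference after 6 h did not pass (q = 0.281).

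Nfkb2 (probe set 10463599, gene at chr19:46300994-46312400) started from a more variable baseline. Its log2 signal at 0 h was 8.77, 9.34 and 8.86, and the second of these arrays, which stood highest for Nfkb2, was the lowest of the 3 for Relb. Untreated NSPs then gave 8.64, 8.59 and 8.57 after 6 h and 8.62, 8.72 and 8.67 after 24 h. They gave 8.78, 8.90 and 8.81 after 48 h and 8.83, 8.91 and 8.85 after 72 h. At matched times no TNF-treated array overlapped an untreated one, and the high 0 h array was the only untreated array of any time within the range of TNF-treated NSPs. In TNF-treated NSPs the values were 9.37, 9.44 and 9.03 after 6 h and 9.71, 9.85 and 9.88 after 24 h. They were 10.01, 10.23 and 10.25 after 48 h and 10.36 and 10.26 after 72 h. The ranges of successive TNF-treated groups did not overlap, although those of 48 and 72 h came close. The differences from untreated NSPs were 0.68 ± 0.12 after 6 h (log2, standard error, limma q = 0.00814), 1.14 ± 0.12 after 24 h (q = 1.06e-05), 1.33 ± 0.12 after 48 h (q = 9.54e-07) and 1.45 ± 0.14 after 72 h (q = 2.05e-06). The 6 h call rested on single arrays. It was lost without TNF replicate 1 (0.64, q = 0.0568), without TNF replicate 2 (0.60, q = 0.0831) or without untreated replicate 3 (0.67, q = 0.0615), and with the 6 h arrays fitted alone (q = 0.598).

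**Figure D1:**
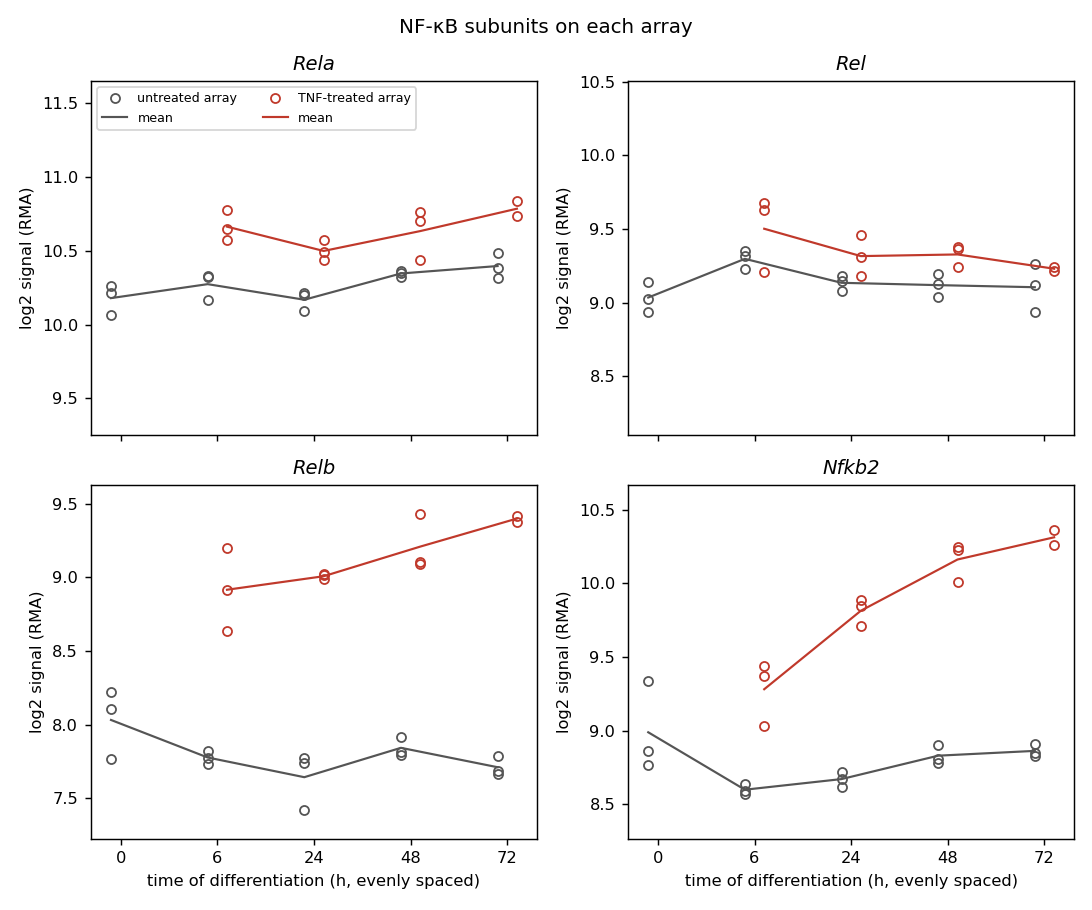
Log2 signal of the 4 measured NF-κB subunit genes on each of the 26 arrays against hours of differentiation, which are evenly spaced on the axis, with circles for arrays and lines through group means. Relb and Nfkb2 of TNF-treated NSPs lie above all untreated arrays of the same time, while for Rel the arrays of both arms overlap at 6 and 72 h.

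Rela (probe set 10460631, gene at chr19:5637442-5648134), which encodes p65, the main transactivating subunit of the canonical branch, moved little. Its log2 signal in untreated NSPs was 10.07, 10.26 and 10.21 at 0 h, 10.33, 10.17 and 10.32 after 6 h, and 10.09, 10.20 and 10.22 after 24 h. It was 10.35, 10.37 and 10.32 after 48 h and 10.32, 10.49 and 10.39 after 72 h. All untreated arrays lay between 10.07 and 10.49. TNF-treated NSPs gave 10.78, 10.65 and 10.57 after 6 h, 10.44, 10.49 and 10.57 after 24 h, 10.44, 10.71 and 10.76 after 48 h, and 10.74 and 10.84 after 72 h. Each TNF-treated array stood above every untreated array of its own time. The difference was 0.39 after 6 h (log2, 95% interval 0.20 to 0.58, limma q = 0.0861), 0.33 after 24 h (0.14 to 0.52, q = 0.124), 0.29 after 48 h (0.10 to 0.48, q = 0.216) and 0.39 after 72 h (0.18 to 0.60, q = 0.0712). The intervals are for the single gene and are not adjusted over probe sets. Replicate numbers were taken to pair arrays if all 3 same-numbered pairs of a time correlated above 0.1. The arrays after 6 h met this rule. Those after 24 and 48 h did not, with lowest correlations of 0.0263 and -0.0238, and those after 72 h, with fewer pairs, could not. With replicate numbers as a block over the arrays of all times, Rela passed after 6 h (0.39, limma q = 0.0352). That q-value thus also rests on times at which the numbers did not meet the rule, and a block on the 6 h arrays alone was not fitted.

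Rel (probe set 10384725, gene at chr11:23736847-23770969) encodes c-REL, a canonical subunit best known from lymphocytes. In untreated NSPs its log2 signal was 9.02, 9.14 and 8.94 at 0 h, 9.35, 9.32 and 9.23 after 6 h, and 9.18, 9.14 and 9.08 after 24 h. It was 9.12, 9.04 and 9.20 after 48 h and 9.26, 8.93 and 9.12 after 72 h. The 6 h arrays were the highest untreated ones apart from 1 array of 72 h that lay among them. TNF-treated NSPs gave 9.67, 9.21 and 9.63 after 6 h, 9.18, 9.46 and 9.31 after 24 h, 9.38, 9.36 and 9.24 after 48 h, and 9.24 and 9.22 after 72 h. After 6 h the second TNF-treated array lay below all untreated arrays of that time, after 72 h both TNF-treated arrays lay within the untreated range, and after 24 h the lowest TNF-treated and the highest untreated array were level to 2 decimals. The difference was 0.20 after 6 h (log2, 95% interval -0.03 to 0.44, limma q = 0.894), 0.18 after 24 h (-0.05 to 0.41, q = 1.0), 0.21 after 48 h (-0.02 to 0.44, q = 0.755) and 0.13 after 72 h (-0.14 to 0.39, q = 0.894). These intervals reached from below zero to about the size of the Rela differences.

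At each of the 4 times, 2 of the 4 measured subunits were called higher with TNF and 0 were called lower. Over all 35556 probe sets 0.312% were called higher after 6 h, 0.627% after 24 h, 0.773% after 48 h and 0.596% after 72 h. Counted by arrays alone, every TNF-treated array lay above every untreated array for 3 of the 4 subunits after 6 h, 4 after 24 h, 4 after 48 h and 3 after 72 h. The same held for 4.31%, 6.85%, 6.41% and 19.0% of all probe sets, where after 72 h 2 TNF-treated arrays had to exceed the untreated ones in place of 3. For Rel the separation after 24 h and 48 h rested on gaps of 0.00024 and 0.0426 on the log2 scale.

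**Figure D2:**
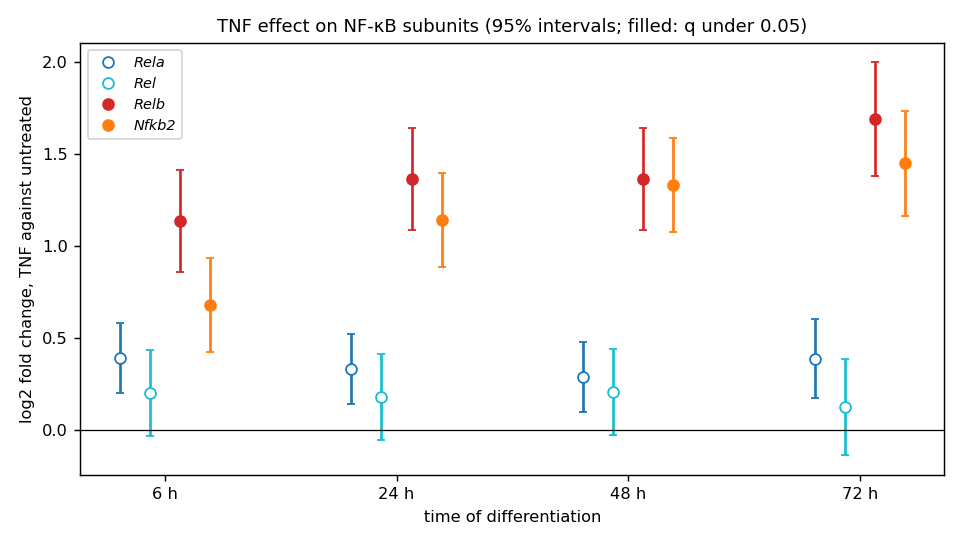
Log2 fold change of TNF-treated against untreated NSPs at the same time for each measured subunit, with 95% intervals from the limma fit and filled symbols for q below 0.05. Relb and Nfkb2 lie between 0.68 and 1.69 and are called at every time, and Rela and Rel lie between 0.13 and 0.39 and are not.

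The 5′ regions of the subunit genes are shown because κB sites there are part of the textbook account of how the family acts on its own members. RefSeq windows of 250 bases before to 50 bases after the start were available for 3 of the 4 measured members in GRCm38.p6, Rela, Rel and Nfkb2. Capitals mark matches to the κB consensus, a motif of 10 bases, searched on both strands, so that overlapping matches merge into a longer run. The windows are Rela at chr19:5637291-5637590 (plus strand), Rel at chr11:23770920-23771219 (minus strand), and 2 of the 3 Nfkb2 starts, at chr19:46304487-46304786 and chr19:46305445-46305744 (plus strand).
Rela: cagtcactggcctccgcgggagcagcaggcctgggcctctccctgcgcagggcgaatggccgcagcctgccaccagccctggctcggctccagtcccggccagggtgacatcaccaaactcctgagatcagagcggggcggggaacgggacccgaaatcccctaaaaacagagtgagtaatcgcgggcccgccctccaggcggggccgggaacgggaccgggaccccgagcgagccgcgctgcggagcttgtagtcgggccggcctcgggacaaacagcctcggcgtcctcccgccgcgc
Rel: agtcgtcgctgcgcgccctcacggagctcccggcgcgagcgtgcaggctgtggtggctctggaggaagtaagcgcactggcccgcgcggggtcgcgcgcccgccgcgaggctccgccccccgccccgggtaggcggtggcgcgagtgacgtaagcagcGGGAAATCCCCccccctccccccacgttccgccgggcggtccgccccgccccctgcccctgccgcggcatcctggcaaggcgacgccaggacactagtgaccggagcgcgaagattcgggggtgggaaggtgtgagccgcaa
Nfkb2 start 1: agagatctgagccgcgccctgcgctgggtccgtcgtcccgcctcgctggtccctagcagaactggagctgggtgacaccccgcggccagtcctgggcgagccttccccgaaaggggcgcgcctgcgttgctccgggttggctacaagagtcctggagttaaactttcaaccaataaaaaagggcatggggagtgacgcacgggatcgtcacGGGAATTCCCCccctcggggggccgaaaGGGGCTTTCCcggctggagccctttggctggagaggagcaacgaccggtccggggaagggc
Nfkb2 start 2: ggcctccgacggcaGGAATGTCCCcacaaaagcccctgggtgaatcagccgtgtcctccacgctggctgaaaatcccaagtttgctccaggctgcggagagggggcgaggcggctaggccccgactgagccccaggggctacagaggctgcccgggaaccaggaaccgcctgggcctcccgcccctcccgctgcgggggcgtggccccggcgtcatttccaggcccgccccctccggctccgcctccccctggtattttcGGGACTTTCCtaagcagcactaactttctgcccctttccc
The Rela window held 0 matches and the Rel window 2 overlapping ones, from position -92 relative to the start. Nfkb2 start 1 held 3 matches, an overlapping pair from -39 and 1 at -11, and start 2 held 2, at -236 and 11. The third Nfkb2 window, at chr19:46305680-46305979, overlaps the second and holds 1 match, the same one that lies at 11 of start 2. Of 32851 mouse promoter windows of this length, 8.46% held at least 1 match, 1.22% at least 2 and 0.186% at least 3. These windows were rich in G and C, at 71.3% for Rela, 75.0% for Rel and 65.7% and 68.0% for the Nfkb2 windows printed, against a median of 52.7% over all windows. A match is a description of letters, not a bound site, and 0 matches says only that these letters are not in the window.

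To set the branches side by side, the mean change from 0 h of Relb and Nfkb2 was compared on each array with that of Rela and Rel. Levels of different probe sets were not compared, only their changes. In untreated NSPs this difference was -0.50 ± 0.03 after 6 h (log2, SD, n = 3), -0.40 ± 0.09 after 24 h, -0.30 ± 0.04 after 48 h and -0.37 ± 0.03 after 72 h. With TNF it was 0.11 ± 0.26 after 6 h, 0.60 ± 0.04 after 24 h, 0.80 ± 0.12 after 48 h and 0.94 ± 0.05 after 72 h (n = 2). The untreated arrays after 0 h were all below zero and the TNF-treated arrays above it, except 1 array after 6 h with -0.17. The mean TNF effect of the non-canonical pair was 0.91, 1.25, 1.35 and 1.57 in order of time, while that of the canonical pair was 0.30, 0.26, 0.25 and 0.26. Hence the gap between the pairs went from 0.61 after 6 h to 1.31 after 72 h. It is given as a description without a test. Between the 2 non-canonical genes, the TNF effect of Relb exceeded that of Nfkb2 by 0.46 after 6 h, 0.22 after 24 h, 0.03 after 48 h and 0.24 after 72 h.

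**Figure D3:**
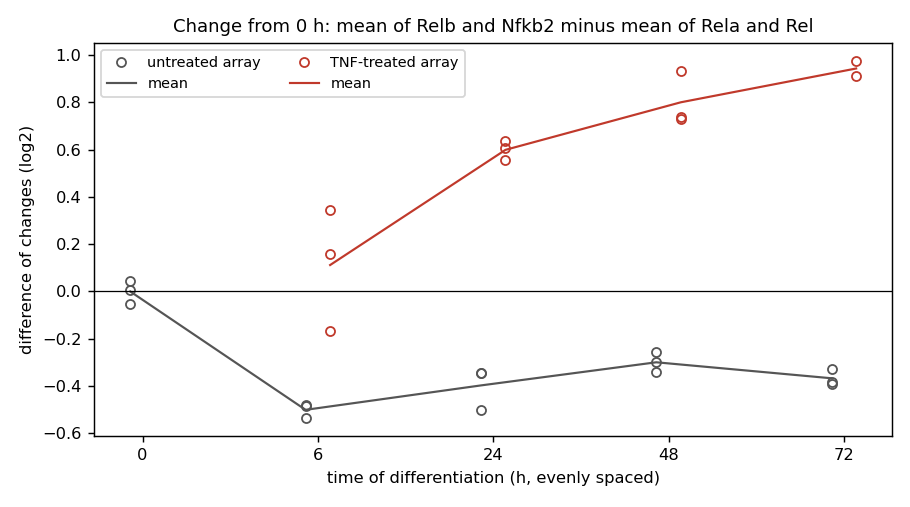
Mean log2 change from 0 h of Relb and Nfkb2 minus that of Rela and Rel on each array, against hours of differentiation, evenly spaced, with lines through group means. TNF-treated arrays go from a mean of 0.11 after 6 h to 0.94 after 72 h, whereas untreated arrays after 0 h stay between -0.54 and -0.26.

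Whether TNF acted differently on the subunits at later times was asked by comparing each later TNF effect with that after 6 h, a comparison in which all contrasts share the 6 h arrays. For Nfkb2 the effect was larger by 0.46 after 24 h, 0.65 after 48 h and 0.77 after 72 h (95% interval 0.38 to 1.15 after 72 h), with limma q = 1.0, 0.423 and 0.217. For Relb it was larger by 0.23, 0.23 and 0.55 (0.13 to 0.96 after 72 h, limma q = 1.0). For Rela the differences from the effect after 6 h were -0.06, -0.10 and -0.0011 in order of time, and for Rel -0.02, 0.0040 and -0.08. With limma 0 of the 4 subunits were called in any of these comparisons, and the calls over all probe sets were 0.0253%, 0.104% and 0.124%, with 947, 1025 and 1050 probe sets at an unadjusted p below 0.05. So the increase of the Nfkb2 effect with time, although visible on the arrays, was not called in a test over the whole table.

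Differentiation without TNF was read by comparing each later time with 0 h. Nfkb2 differed from 0 h by -0.39, -0.32, -0.16 and -0.13 after 6, 24, 48 and 72 h (log2, limma q = 0.0464, 0.0507, 0.318 and 0.257). Relb differed by -0.25, -0.39, -0.19 and -0.32 in the same order (limma q = 0.258, 0.0322, 0.283 and 0.0528). Nfkb2 after 6 h and Relb after 24 h were the only 2 of 16 member comparisons with 0 h that passed. Of all probe sets 7.67%, 16.5%, 16.0% and 22.8% passed in either direction at 6, 24, 48 and 72 h. All 4 contrasts share the 0 h arrays. The Nfkb2 call after 6 h was lost without the high 0 h replicate 2 (-0.22), as well as without untreated 6 h replicate 1 (-0.41), 2 (-0.38) or 3 (-0.38). The Relb call after 24 h was lost without 0 h replicate 1 (-0.29), 0 h replicate 3 (-0.35) or 24 h replicate 2 (-0.28). Rela differed from 0 h by 0.09, -0.01, 0.17 and 0.22 (limma q = 0.540, 0.467, 0.182 and 0.0553), and Rel by 0.26, 0.10, 0.08 and 0.07 (limma q = 0.154, 0.295, 0.473 and 0.347).

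Ordered by mean level over the 9 conditions, Relb had the 5 untreated groups lowest, from 24 h (7.64 ± 0.19, SD) to 0 h (8.03 ± 0.23), each overlapping the next. A gap followed before TNF after 6 h (8.92 ± 0.28) and 24 h (9.01 ± 0.02), which overlapped, and then TNF after 48 h (9.21 ± 0.19) and 72 h (9.40 ± 0.03), which overlapped each other. The TNF arrays of 6 h, up to 9.20, also reached into the range of 48 h, which began at 9.09. Nfkb2 ran from untreated 6 h (8.60 ± 0.04) to untreated 0 h (8.99 ± 0.30), whose range reached into TNF after 6 h (9.28 ± 0.22). It continued with TNF after 24 h (9.81 ± 0.09), 48 h (10.16 ± 0.13) and 72 h (10.31 ± 0.07). For Rela every neighbour in the order overlapped, from untreated 24 h (10.17 ± 0.07) to TNF 72 h (10.79 ± 0.07). For Rel the lowest was untreated 0 h (9.03 ± 0.10) and the highest TNF 6 h (9.50 ± 0.26), with untreated 6 h (9.30 ± 0.06) among the TNF-treated groups.

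The genes whose signal followed each subunit most closely over the 26 arrays were found by Pearson r, as a description, since the arrays share TNF treatment and time. For Relb they were Tnfaip3 (r = 0.971), which encodes the ubiquitin editor A20, Nfkbia (0.961), which encodes IκBα, and Tlr2 (0.957), a pattern recognition receptor. For Nfkb2 they were Irf1 (0.971), an interferon regulatory factor, H2-Q4 (0.955), an MHC class I gene, and Tap1 (0.953), the peptide transporter of antigen processing. For Rela they were Tmem243 (0.917), Tfe3 (0.904), a transcription factor of lysosomal genes, and Cebpd (0.896), a C/EBP factor of the acute response. For Rel r was lower, with Snx16 (0.829), Klhl2 (0.803) and Exoc1 (0.803). Between the subunits themselves r was 0.909 for Relb with Nfkb2, 0.821 for Rela with Relb, 0.797 for Rela with Nfkb2, 0.501 for Rel with Relb, 0.475 for Rela with Rel and 0.322 for Rel with Nfkb2.

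Around the subunits, 71 of 77 genes of the NF-κB pathway lists were measured. With TNF, 12 were called higher after 6 h, 12 after 24 h, 11 after 48 h and 11 after 72 h, and 0, 0, 0 and 1 lower. The median change of the 71 genes was 0.06, 0.14, 0.04 and 0.08 (log2), beside -0.04, 0.01, -0.02 and -0.02 for all probe sets. The calls lay with inhibitors, a few adaptors, ubiquitin editors and target genes. Among the 6 inhibitors of the IκB family, 2, 3, 2 and 2 were higher. Nfkbia rose by 2.11 after 6 h and 2.67 after 48 h. Nfkbie, which encodes IκBε, had 0.36 after 6 h without a call, then rose by 1.36, 2.25 and 2.58. Nfkbiz, which encodes the nuclear IκBζ, rose by 1.32 after 6 h and 0.76 after 24 h, and its 0.57 and 0.45 at 48 and 72 h were not called. Leaving out single arrays ended the call of Nfkbiz after 24 h.

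Of 10 measured receptor and adaptor genes, 2, 1, 2 and 1 were called higher. Traf2, which encodes an adaptor of the TNF receptor complex, rose at every time, by 0.92, 1.17, 1.07 and 1.10. Traf5 rose by 0.40 after 6 h and Birc2, which encodes the ubiquitin ligase cIAP1, by 0.87 after 48 h, and leaving out single arrays ended either call. Of 9 ubiquitin editors 2 were higher at each time. Tnfaip3 rose by 1.88, 2.23, 2.51 and 2.54, and Tnip1, whose product binds A20, by 0.80, 0.90, 1.24 and 1.37. None of 9 IKK and upstream kinase genes was called higher by limma, and 1 was lower, Tab3 after 72 h (-0.67, limma q = 0.0296), a call that single arrays also decided. Of the 8 measured genes of the non-canonical branch outside the subunits 0 were called at any time. Map3k14, which encodes NIK and was singled out after its values were seen, had differences of 0.18, 0.08, -0.01 and 0.07. Of 9 nuclear regulators of the subunits 0 were called. Over all probe sets 0.312%, 0.627%, 0.773% and 0.596% were called higher at 6, 24, 48 and 72 h, so 0 calls in lists this short say little. An unadjusted p below 0.05 in either direction was reached by 1768, 1999, 2316 and 3402 of 35556 probe sets.

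Of 20 measured classical target genes 6, 6, 5 and 6 were called higher and 0 lower. Most moved little, with a median change of the 20 of 0.16, 0.20, 0.02 and 0.07 (log2). Untreated means of the targets not called after 6 h ran from 3.82 to 12.36 at that time, so some lay near the low end of the table. Without detection values, such a target may be unexpressed and not merely unchanged. The targets named here had the largest changes. Lcn2, which encodes the siderophore-binding lipocalin 2, rose by 3.63, 5.68, 5.03 and 3.87 (log2). Ccl2, a monocyte chemokine, rose by 5.26, 5.23, 4.73 and 3.39, and Cxcl10, a T cell chemokine, by 3.57, 4.80, 4.19 and 2.88. From 6 to 72 h, untreated means went from 6.84 to 9.31 (Lcn2), 7.33 to 8.99 (Ccl2) and 7.44 to 9.85 (Cxcl10). TNF-treated means went from 10.47 to 13.18, 12.59 to 12.38 and 11.01 to 12.73 in the same order. Vcam1, an adhesion molecule, rose by 1.33, 2.29, 2.59 and 2.21, and its 6 h call was lost when single arrays were left out.

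**Figure D4:**
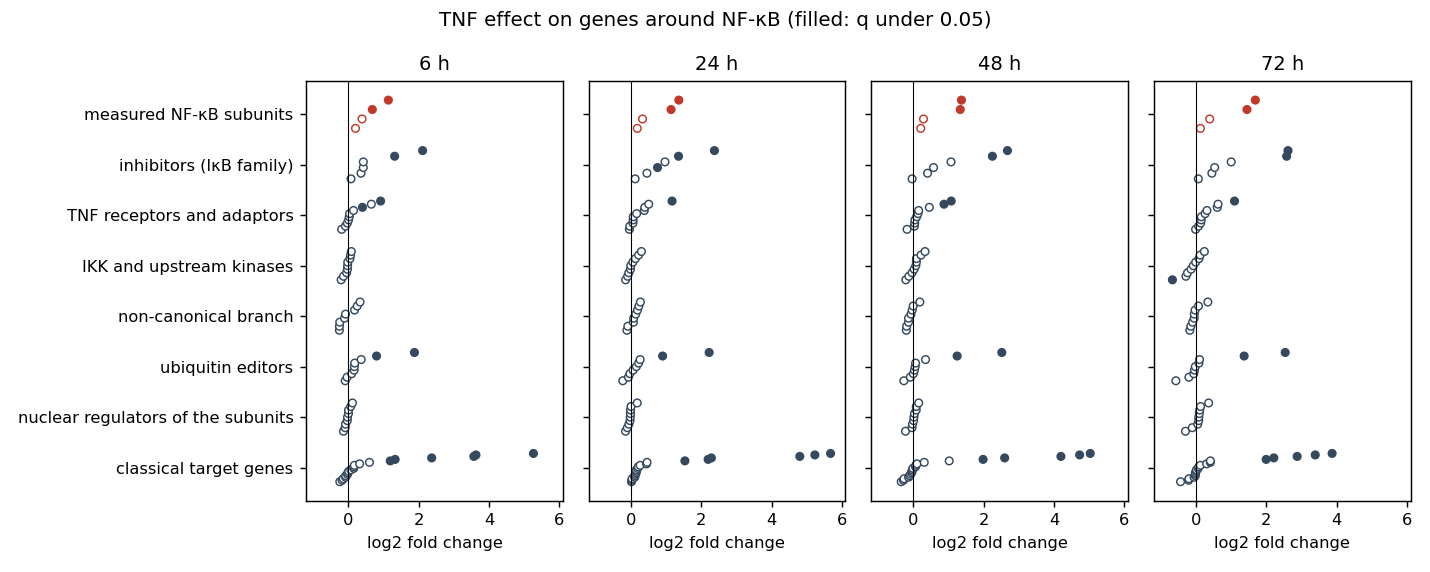
Log2 fold change of TNF-treated against untreated NSPs at each time for the measured subunits (red) and for the measured genes of each pathway list (dark blue), filled where q was below 0.05. The genes called higher lie among the inhibitors, adaptors, ubiquitin editors and classical targets, the 1 called lower is Tab3 among the kinases after 72 h, and 0 are called in the non-canonical branch list. Over all probe sets 0.312% to 0.773% were called higher, depending on the time.

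Microglia also respond to TNF through NF-κB, so markers of other cell types were read beside these results. The mean level of 10 measured microglial markers spanned 6.70 to 7.14 on untreated and 6.66 to 7.15 on TNF-treated arrays. With TNF 1 of the 10 was called higher, Cd68 after 24 h (2.13, limma q = 0.00949), and 0 at 6, 48 and 72 h. Endothelial markers spanned 6.80 to 7.34 and 6.60 to 7.04, mural markers 8.03 to 9.06 and 8.64 to 9.28, neural stem cell markers 10.63 to 11.25 and 10.83 to 11.20, neuronal markers 8.35 to 9.14 and 8.48 to 9.05, and oligodendrocyte lineage markers 8.61 to 9.69 and 8.59 to 9.06. None of these 5 lists had a gene called with TNF by limma. Over all probe sets 0.312% to 0.773% were called higher, depending on the time, so 0 calls in lists this short do not show an absence of response. In all of these spans the untreated arrays include 0 h, which the TNF-treated arrays lack. At matched times the median TNF effect on mural markers was 0.05, 0.04, -0.02 and -0.16 (log2) at 6, 24, 48 and 72 h. Of the astrocyte markers 1 was lower with TNF after 24 h, Gja1, a gap junction gene. The table carries no detection values, so that a marker at background cannot be separated from one expressed at a low level, and the part of other cell types in the subunit values was not tested.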

How the data were processed

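The deposited values are log2 signals of 26 Affymetrix mouse gene arrays, 3 per condition and 2 for TNF at 72 h. The authors made them with oligo and RMA in R 3.3.1, per the labels, which corrects background, equalizes array distributions and summarizes probes to probe sets. Such values compress large changes and depend on all arrays together. The number of arrays limits the precision. Nothing further was normalized. Probe sets were named from the platform annotation: 21789 carry 1 symbol, 1621 several and 12146 none. Coordinates are from GRCm38.

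limma 3.58.1 in R 4.3.3 fitted 1 mean per condition over all 26 arrays, and q-values were computed by a smoother over all 35556 probe sets (lambda from 0.05 to 0.95 in steps of 0.05). The script was tested on simulated data. Replicate numbers were taken to pair arrays where the correlation of same-numbered deviations from the group means exceeded 0.1 in all 3 pairs. At 6 h these were 0.674, 0.559 and 0.461, so a block was used as an alternative. At 24 and 48 h this rule was not met, and at 72 h, with fewer pairs, it could not be met. The block was fitted over the arrays of all times, including those at which the rule was not met. p-values measure only the spread between these arrays.

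Members and gene lists were chosen with earlier results of these data known. Of each pathway list up to 4 called genes with the largest change are named, and for each subunit the 3 genes with the highest r. Alternatives were cyclic loess, a filter on the dimmest 40% of probe sets, probe sets with 1 symbol, Benjamini-Hochberg, a q-value below 0.01, array weights, a robust prior with an intensity trend, the replicate block, the arrays compared alone, and each array left out.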

Additional observations from a re-analysis of the deposited data

How the results depend on the processing

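Relb was called higher with TNF at every time without any single array, and Nfkb2 at 24, 48 and 72 h. Without 1 array the subunits called higher with TNF numbered 1 to 2 at 6 h, 2 at 24 and 72 h, and 2 to 3 at 48 h, and the pathway genes called higher 10 to 12. With 1 TNF array at 72 h left out, the other is assumed to vary like the other groups. Leaving out an array took the share of all probe sets called higher with TNF to between 0.197% (without untreated replicate 3) and 0.371% at 6 h, 0.371% (without TNF replicate 2) and 0.515% at 24 h, 0.405% (without untreated replicate 1) and 0.858% at 48 h, and 0.225% (without TNF replicate 2) and 0.447% at 72 h. Over the other settings, that share ran from 0.0309% to 3.61% at 6 h, from 0.38% to 2.65% at 24 h, from 0.422% to 1.76% at 48 h and from 0.295% to 7.31% at 72 h. The lowest share at 6 h came from the arrays compared alone, where 0 subunits and 4 pathway genes were called higher at 6 h, and the highest shares came from array weights. Array weights ranged from 0.148 to 40.4 and their estimation stopped before convergence. Under them 4 subunits were called higher with TNF at 6 h, and pathway genes called higher were 19, 19 and 20 at 6, 24 and 72 h.

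Rela, below the threshold with TNF in the main analysis, passed under cyclic loess at 6, 24 and 72 h (q = 0.0324, 0.0361 and 0.0418), without the dimmest 40% of probe sets at 6 and 72 h (q = 0.0493 and 0.0374), with single-symbol probe sets at 72 h (q = 0.0461), with the arrays compared alone at 72 h (q = 0.0455) and without TNF replicate 1 at 48 h (0.39, q = 0.0326) as well as at all 4 times under array weights. Its sign with TNF was the same in each of these.

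In untreated cells the calls lower than 0 h were 0 at 6 and 24 h under Benjamini-Hochberg, a q-value below 0.01 and the arrays compared alone, and 0 at 6 h with an intensity trend and a robust prior. They were 2 at 24 h and 1 at 72 h under cyclic loess, with single-symbol probe sets, without the dimmest 40% of probe sets and with the replicate block, and all of these except cyclic loess also gave 1 call higher at 72 h. Array weights gave 2, 2 and 1 lower at 6, 24 and 72 h and 2, 1 and 2 higher at 6, 48 and 72 h. Leaving out an array gave 0 to 1 lower at 6 h and at 24 h, and 0 to 1 lower and 0 to 1 higher at 72 h, where Relb (-0.45) and Rela (0.26) passed without 0 h replicate 2. At 24 h the call passed to Nfkb2 without 0 h replicate 1 (-0.43) or 3 (-0.38). Under array weights the TNF effect was called larger than at 6 h for 1, 1 and 2 subunits at 24, 48 and 72 h.

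Signs turned in the following values, none of which was called in the main analysis. Leaving out an array, Rela at 24 h against 0 h ran from -0.067 to 0.029, Rel at 72 h from -0.0073 to 0.16, and Nfkb2 from -0.27 to 0.015 at 48 h and from -0.24 to 0.047 at 72 h. For the effect minus that at 6 h, Rel ran from -0.17 to 0.063 at 24 h, from -0.14 to 0.090 at 48 h and from -0.23 to 0.0070 at 72 h, and Rela from -0.052 to 0.055 at 72 h. At 48 h Rel was -0.028 under cyclic loess and -0.21 under array weights, and at 72 h Rela was 0.068 under array weights and 0.011 with the replicate block. The cause of these changes was not tested.

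Same-numbered arrays did not pair at 24 h (correlations 0.384, 0.471 and 0.0263), 48 h (0.309, 0.608 and -0.0238) or 72 h (0.0795 and -0.0156). With the replicate block Rela also passed with TNF at 72 h (q = 0.0226), but not when the second TNF array of 72 h was left out as well (0.38, q = 0.107). Whether the numbers of the TNF arrays at 72 h match those of the untreated arrays cannot be told from the labels. In untreated cells the block also called Nfkb2 at 24 h (q = 0.0229) and Rela and Relb at 72 h (q = 0.0289 and 0.0282). Apart from these and Rela with TNF at 6 h, it changed no subunit call. A comparison of several probe sets of a subunit was not run, since each has 1.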
